A study of Mus musculus with 38 samples.

Results

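MLL-AF1p is a leukaemia oncogene in which the front part of MLL, a histone methyltransferase (mouse gene Kmt2a), is joined to AF1p, the protein of the EPS15 gene (mouse gene Eps15), an adaptor that gathers receptors into clathrin-coated pits. Whole bone marrow from 9 mice with leukaemia started by MLL-AF1p was set against marrow from 4 normal mice, which are 13 of the 38 arrays of the study and were chosen by their titles. Leukaemia was started by infecting marrow progenitors that carry the c-kit receptor with a retrovirus that carried the oncogene. These cells were transplanted into lethally irradiated C57BL/6 mice of the same inbred strain, male or female, and marrow was taken when the leukaemic animals were killed. The normal samples were marrow of wild type C57BL/6 mice, again male or female, and nothing in the labels says that these mice were irradiated or transplanted. Marrow cells of both groups were frozen before RNA extraction. The oncogene was carried by a virus and not placed in the mouse's own MLL locus, the infected cells were marrow progenitors and not a cell line, and whole marrow can also hold cells of the recipient. Ages, the promoter in the virus and the share of leukaemic cells in each marrow are not given in the sources used here. Of 13333 genes measured on the arrays, the 12852 on autosomes are described, and genes of chromosomes X and Y were set aside.

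In normal marrow, stem cells give rise to red cell, platelet, granulocyte, monocyte and lymphoid precursors, and MLL keeps homeobox genes of the HoxA cluster active in the earliest of these cells. An MLL fusion protein holds Hoxa9 and its DNA-binding partner Meis1 at high levels in committed progenitors and so keeps them dividing without maturing. Many fusion partners are nuclear proteins of the transcription elongation machinery, whereas AF1p is a cytoplasmic protein whose coiled coil can pair 2 copies of the fusion.

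38 arrays carried 1 mouse each, with median intensities from 129.2 to 208.3 in MLL-AF1p and from 160.1 to 184.9 in normal marrow. Levels below are log2(intensity + 46.1) with the median of all arrays brought to 1 value, so a probe set with almost no signal lies near 5.53, and a fold change understates the change of a dim gene. The arrays were split into 2 sets, which the labels do not name, at a gap of 0.618 on the log2 scale in 1 probe set. Such a cut always gives 2 sets and is not by itself evidence of a batch. MLL-AF1p mice AF1p_801, AF1p_804, AF1p_810 and AF1p_811 lie in the first. Mice AF1p_803, AF1p_805, AF1p_806, AF1p_808 and AF1p_809 lie with all 4 normal samples in the second. All 9 MLL-AF1p marrows carried the X-inactivation RNA Xist at 14.13 to 14.86, against 8.16 to 9.06 in normal marrow, and the Y-linked Eif2s3y at 5.36 to 6.42, against 9.75 to 10.39, so this sex-linked pattern and the leukaemia cannot be told apart on these 13 arrays. Between the array sets 995 genes (7.46%) differed among the leukaemias, 0 of the 30 largest changes among them, and all 30 were called within the second set. The 3′ to 5′ log2 ratio of the actin control probe sets was 0.297 ± 0.0991 in MLL-AF1p and 0.136 ± 0.0625 in normal marrow (SD, n = 9 and 4), and it differed in an exact 2-sided permutation test (adjusted p = 0.042). The 18S control signal differed as well (log2 means of 8.59 and 7.09, exact permutation test, adjusted p = 0.0392), the Gapdh ratio did not pass (-0.279 and -0.254, adjusted p = 0.66), and the part of these signs in the results was not tested. The summed intensity of the 29 erythroid genes measured was 12980.3 to 17186.3 in MLL-AF1p and 208905 to 311396 in normal marrow. This is the red cell fall described below and is no separate check of the labels.

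Promoter sequences are shown first for 2 chosen fusion targets that rose and 4 red cell genes that fell, so that the control regions of genes with large changes can be read. They are the 200 bases before the annotated start, 5′ to 3′ on the gene's strand, from RefSeq on build GRCm38.p6. The HoxA gene Hoxa9 (chr6:52227371-52227570, minus strand) and the cofactor gene Meis1 (chr11:19018970-19019169, minus strand) are printed with CG dinucleotides in capitals, since MLL reaches its targets through a domain that binds unmethylated CG-rich DNA.
Hoxa9: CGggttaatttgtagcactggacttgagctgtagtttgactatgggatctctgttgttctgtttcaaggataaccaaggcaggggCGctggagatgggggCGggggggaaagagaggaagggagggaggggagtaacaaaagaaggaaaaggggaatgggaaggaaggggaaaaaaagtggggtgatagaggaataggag
Meis1: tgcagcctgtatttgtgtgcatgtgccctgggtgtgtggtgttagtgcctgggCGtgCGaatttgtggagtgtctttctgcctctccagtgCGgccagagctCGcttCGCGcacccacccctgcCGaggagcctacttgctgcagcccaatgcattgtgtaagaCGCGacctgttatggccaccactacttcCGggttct
Hoxa9 held 3 CG in this window and Meis1 10, against a median of 5 over 27025 promoters, and the 7 HoxA genes that rose held 3 to 33. At least as many CG stood in 65.2% of all promoters for Hoxa9 and in 34.7% for Meis1. The red cell genes Hemgn (chr4:46404184-46404383, minus strand), Rhag (chr17:40810949-40811148, plus strand), Ermap (chr4:119189996-119190195, minus strand) and Kel (chr6:41704326-41704525, minus strand) are the 4 erythroid genes with the largest falls whose window holds the GATA motif, AGATAA or TGATAA on either strand, shown in capitals. GATA factors bind such letters in red cell genes.
Hemgn: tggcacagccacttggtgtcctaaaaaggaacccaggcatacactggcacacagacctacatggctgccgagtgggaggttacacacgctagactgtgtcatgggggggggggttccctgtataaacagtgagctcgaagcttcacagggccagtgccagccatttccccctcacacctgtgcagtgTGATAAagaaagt
Rhag: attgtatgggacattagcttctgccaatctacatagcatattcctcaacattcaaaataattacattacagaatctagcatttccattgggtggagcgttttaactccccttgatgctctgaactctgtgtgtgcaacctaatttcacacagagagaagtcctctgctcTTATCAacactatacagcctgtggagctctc
Ermap: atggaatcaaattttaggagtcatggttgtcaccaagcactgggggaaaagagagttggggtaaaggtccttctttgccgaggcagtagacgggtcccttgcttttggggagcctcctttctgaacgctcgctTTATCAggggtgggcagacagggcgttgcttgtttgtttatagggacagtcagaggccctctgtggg
Kel: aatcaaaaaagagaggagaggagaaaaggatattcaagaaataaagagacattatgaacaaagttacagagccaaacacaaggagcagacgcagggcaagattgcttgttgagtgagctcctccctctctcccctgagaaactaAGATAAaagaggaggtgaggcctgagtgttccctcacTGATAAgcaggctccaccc
The motif was present in 8 of the 19 erythroid genes that fell and have a promoter entry, in 0 of the 7 HoxA genes that rose, and in 13.5% of all promoters. Car2, Slc4a1, Car1 and Cldn13 have no entry. A match describes the letters in this window and is not evidence of binding.

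MLL-AF1p leukaemic marrow differed from normal marrow in 4710 of 12852 autosomal genes, 36.6%, at a limma adjusted p under 0.05. 3113 genes (24.2%) were higher and 1597 (12.4%) lower, but the falls were deeper: among changes of at least 8-fold, 18 were rises and 112 were falls, and at 2-fold the numbers were 867 and 865. The filter on dim genes bears on the falls: 289 genes would not have been kept without the normal samples, being above the array median on fewer than 4 leukaemia arrays, and 191 of them were called, all as lower. Without these genes, 73 falls reached 8-fold. A gene dim in normal marrow could likewise be kept through the 34 leukaemia arrays alone, and rises of such genes were not counted. With no filter on dim probe sets, 3039 of 17404 autosomal genes were called higher and 1681 lower. The filter bears on single genes too: Hemgn, Rag1, Ppbp, Prg2 and C1qa, described below, lay below the array median in all 9 MLL-AF1p mice. The 4 normal samples alone sufficed to keep these genes, so their folds and adjusted p only describe the difference. Counts within the gene lists below are to be read beside the shares of all autosomal genes, 24.2% higher and 12.4% lower. The 15 largest rises included the fusion targets Hoxa9, Hoxa10, Meis1 and Mycn, and the 15 largest falls were mostly genes of red cells, with the platelet gene Ppbp and the eosinophil gene Prg2. The split of calls depends on the scaling: 66.1% of the calls were rises here, where the median gene moved by 0.14, against 55.3% with intensities as deposited (median 0.0259) and 58.5% after quantile normalization (median 0.078). All 9 MLL-AF1p mice lay beyond all 4 normal samples for 2246 genes (17.5%), 1319 of them above and 927 below. In bulk marrow a lower level can mean fewer cells of a type or less RNA in each cell, and these cannot be told apart. A higher level can likewise mean a larger share of cells of a type or more RNA in each cell. These cannot be told apart either. The volcano plot of all autosomal genes shows the depth of the falls beside the number of the rises.

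**Figure D1:**
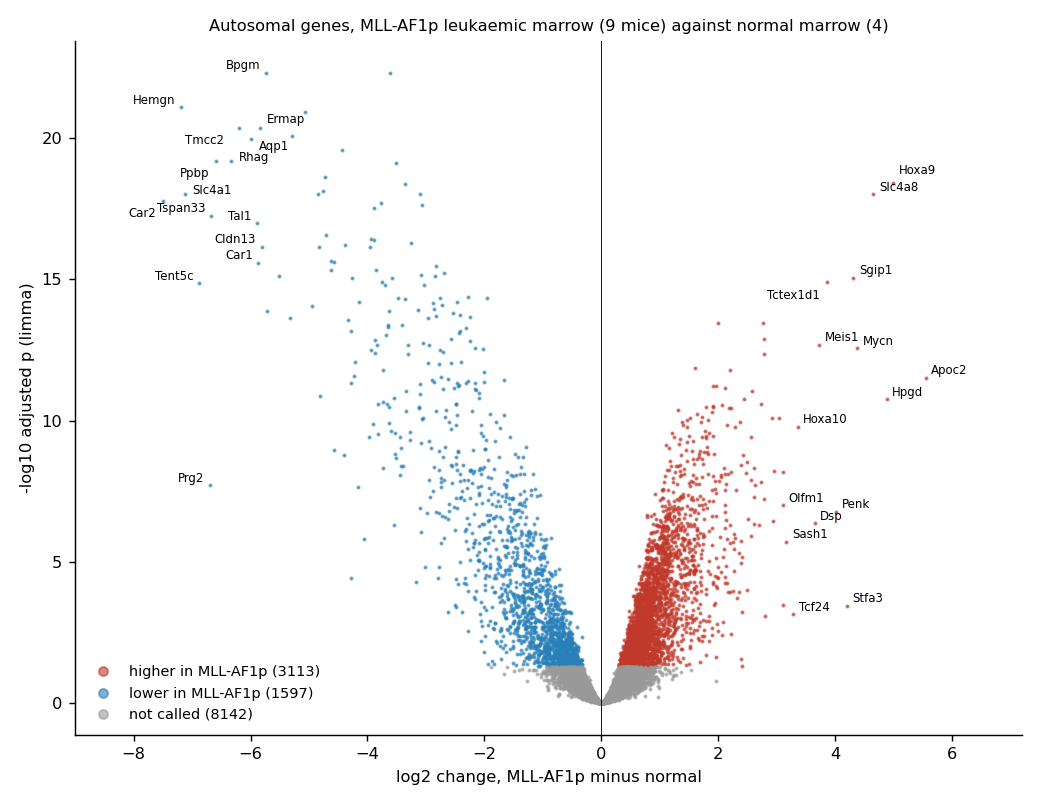
Each point is 1 of 12852 autosomal genes, with the log2 change of the MLL-AF1p mean from the normal mean on the x axis and −log10 of the limma adjusted p on the y axis; colours mark genes called higher, called lower or not called, and the 15 largest rises and falls are named. The 1597 falls reach further from 0 than the 3113 rises, with Car2 at -7.50 and Apoc2 at 5.55.

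HoxA genes rose together, and 7 of the 8 measured members passed the test. Hoxa9, the homeobox factor on which MLL leukaemias depend, ran from 11.98 to 13.56 (median 12.81) in the 9 MLL-AF1p mice, against 8.08, 7.86, 7.25 and 7.81 in the normal samples. The lowest leukaemia stood far above the highest normal sample, and the rise was 31.9-fold (4.99 ± 0.24 on the log2 scale, adjusted p = 4.04e-19). Hoxa10, its neighbour with a like role in progenitors, ran from 9.56 to 11.44 (median 10.36) in MLL-AF1p, against 7.09, 6.85, 7.64 and 6.89 in normal marrow, again with no overlap (rise of 3.35, adjusted p = 1.64e-10). Hoxa5, a HoxA gene bound by MLL in progenitors, rose by 2.95 to a narrow range of 9.98 to 10.59, against 7.23 to 7.46 in normal marrow. Hoxa7 rose by 2.36 and Hoxa3 by 2.04, and both also lay apart from all normal samples in every mouse. At the ends of the cluster the changes were smaller: Hoxa2 rose by 0.87 (adjusted p = 0.012) and Hoxa13 by 0.49 (adjusted p = 0.0404), with 8 and 7 of 9 mice above all normal samples. With 1 array left out at a time, some of the smaller changes lost their call, and the arrays concerned are named beside each such gene. Hoxa2 did not pass without normal sample 2 (adjusted p = 0.101). Hoxa13 did not pass without mouse AF1p_801, AF1p_803, AF1p_806, AF1p_809 or AF1p_810 or normal sample 1, 2, 3 or 4 (adjusted p up to 0.111). Hoxa11 did not pass (0.57, adjusted p = 0.132), and Hoxa4 and Hoxa6 were not measured here. The median change over the 8 genes was 2.20, beside 0.14 over all autosomal genes.

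The HoxB cluster holds homeobox genes active in normal stem cells, and 0 of its 4 measured members was called by limma, nor was any at an unadjusted p under 0.05. Hoxb2 had a level from 7.30 to 10.37 (median 7.57) in MLL-AF1p, against 7.65, 7.31, 6.35 and 6.92 in normal marrow. Most mice overlapped the normal samples and mouse AF1p_810 stood alone at the top. The difference of 0.94 did not pass (adjusted p = 0.115), nor did those of Hoxb3 (-0.05), Hoxb4 (-0.19) and Hoxb7 (-0.29).

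TALE homeobox proteins bind DNA beside Hox proteins, and 3 of 6 measured rose while 1 fell. Meis1, the cofactor that speeds Hoxa9 leukaemia, ran from 9.63 to 10.93 (median 10.49) in MLL-AF1p, against 7.10, 7.43, 6.11 and 6.23 in normal marrow, with every leukaemia above every normal sample (rise of 3.72 ± 0.28, adjusted p = 2.05e-13). Pbx3, which joins Hoxa9 and Meis1 in a 3-part complex, rose by 2.26 ± 0.40 (adjusted p = 2.08e-05) to 10.58 to 11.37, against 8.65 to 8.87. Pknox1, a relative of Meis1, rose by 0.69 (adjusted p = 0.00118), and Pbx2 fell by 0.52 (adjusted p = 0.00892). Meis3 and Pknox2 were not called (-0.27 and -0.21).

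Of 15 other genes known as MLL fusion targets, 8 rose and 2 fell, with a median of 0.60. Mycn, a MYC-family growth regulator, ran from 10.44 to 12.46 (median 11.72) in MLL-AF1p, against 7.17, 7.84, 6.55 and 7.34 in normal marrow, and the groups stood apart (rise of 4.37 ± 0.33, adjusted p = 2.77e-13). This rests on 1 probe set, because the other kept Mycn probe set went the opposite way (-0.84). Igf2bp3, an RNA-binding protein of fetal progenitors, rose by 2.76 ± 0.20 (adjusted p = 3.44e-14) and was among the most uniform members, with 11.03 to 11.55 in MLL-AF1p and 8.09 to 9.03 in normal marrow. Eya1, a transcription cofactor induced by MLL fusions, rose by 3.11 (adjusted p = 0.000334), although mouse AF1p_808 at 7.43 lay just above the highest normal sample (7.38) and the other 8 mice at 9.82 to 11.53. Cdk6, the cyclin-dependent kinase that MLL leukaemias need, rose by 1.79 (adjusted p = 4.27e-10). The members that fell were the adhesion receptor Adgrg1 (-1.99, adjusted p = 0.00415) and Bcl11a, a repressor needed for B cells (-1.50, adjusted p = 0.00921). Flt3, the receptor kinase, was not called (0.18, adjusted p = 0.832), nor was the stem cell factor Mecom (0.23).

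Of the mouse genes of the fusion itself, Eps15 was called lower and Kmt2a was not called in the main fit. Eps15 ran from 10.95 to 12.03 (median 11.71) in MLL-AF1p, against 12.58, 12.48, 11.76 and 12.34 in normal marrow, and 5 of 9 mice lay below all normal samples. The fall of 0.65 ± 0.19 passed the test (adjusted p = 0.00697). These probe sets read mouse Eps15, and whether they also read the AF1p part of the oncogene was not tested. Kmt2a, the mouse MLL gene, was not called (-0.29, adjusted p = 0.102). It passed as lower with values as deposited (-0.40), after quantile normalization (-0.39) and with averaged probe sets (-0.68). Among genes of other fusion partners, Mllt3 (AF9) fell by 1.99 ± 0.34 (adjusted p = 1.35e-05) and lay below all normal samples in 9 of 9 mice. Mllt10 (AF10) rose by 0.86 (adjusted p = 8.4e-05) and Mllt1 (ENL) by 0.86 (adjusted p = 0.0333), whereas Gas7 was not called (0.62, adjusted p = 0.203). Mllt1 did not pass without mouse AF1p_805, AF1p_808, AF1p_809, AF1p_810 or AF1p_811 or normal sample 3 or 4 (adjusted p up to 0.233). Of the 18 genes of MLL complexes and the elongation machinery, 4 rose and 4 fell. Besides Mllt10 and Mllt1 the rises were those of the MLL complex subunit Wdr5 (0.47) and the elongation kinase Cdk9 (0.41), both named after their values were seen. Cdk9 did not pass without normal sample 1, 3 or 4 (adjusted p up to 0.0808). Besides Mllt3 the falls were those of Mllt6, a further fusion partner gene (-0.83, adjusted p = 0.000226), Ell2, an elongation factor that plasma cells use (-2.53, adjusted p = 1.1e-07), and Psip1, the chromatin tether of MLL (-1.53, adjusted p = 1.59e-06). Of the 29 genes of the endocytic network in which Eps15 works, 4 rose and 1 fell, with a median of -0.02. The falls numbered 6 with values as deposited (beside 3 rises), 8 after quantile normalization (beside 4) and 5 with averaged probe sets (beside 3), so the balance of the list depends on the processing. Sgip1, an endocytic adaptor that binds EPS15, was the exception in size. Clathrin light chain Clta rose by 0.77 (adjusted p = 2.69e-05), the scaffold Itsn2 by 0.65 and the recycling protein Ehd4 by 0.64. Itsn2 turned to -0.063 when the probe sets of a gene were averaged. Itsn2 did not pass without normal sample 4 (adjusted p = 0.0534). Ehd4 did not pass without mouse AF1p_804, AF1p_805, AF1p_806, AF1p_808, AF1p_809, AF1p_810 or AF1p_811 or normal sample 1, 2, 3 or 4 (adjusted p up to 0.155).

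Sgip1 belonged to the largest rises, a set chosen among genes for which every mouse lay above every normal sample. Sgip1 ran from 10.24 to 11.78 (median 11.52) in MLL-AF1p, against 6.97, 6.54, 7.29 and 7.17 in normal marrow, and rose 19.8-fold (adjusted p = 8.77e-16), and 3 kept probe sets of the gene rose. Tctex1d1, a dynein light chain relative that lies near Sgip1 on chromosome 4, rose 14.5-fold (adjusted p = 1.28e-15). The largest rise was that of Apoc2, the apolipoprotein that activates lipoprotein lipase, with a level from 12.22 to 13.50 (median 12.79) in MLL-AF1p, against 6.42, 8.68, 8.10 and 5.73 in normal marrow. The normal samples spread widely and the leukaemias did not, and the rise was 46.8-fold (5.55 ± 0.46, adjusted p = 3.14e-12). Hpgd, which breaks down prostaglandins, ran from 12.84 to 14.15 (median 13.78), against 8.01, 9.48, 8.86 and 8.72, and rose 29.4-fold (adjusted p = 1.79e-11).

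Slc4a8, a sodium-driven bicarbonate exchanger, ran from 10.68 to 11.87 (median 11.57) in MLL-AF1p, against 7.42, 6.27, 7.42 and 6.23 in normal marrow, with a wide gap between the groups (rise of 4.65 ± 0.23, adjusted p = 9.96e-19). Penk, the enkephalin precursor, ran from 10.33 to 13.23 (median 11.66), against 7.48, 7.06, 7.64 and 8.000. It varied more among the leukaemias (SD 0.99) than among the normal samples (SD 0.39), and rose 16.1-fold (adjusted p = 1.66e-07). Stfa3, a stefin A protease inhibitor, ran from 10.93 to 14.75 (median 13.15), against 8.56, 8.68, 9.67 and 8.54, and rose by 4.19 ± 0.91 (adjusted p = 0.000354); stefin A genes lie in near-identical copies that 1 probe set may not tell apart. The desmosome protein Dsp rose by 3.64 and the secreted protein Olfm1 by 3.11, with adjusted p = 4.26e-07 and 1e-07. The plot of the 30 largest changes by mouse shows how the samples of each group spread.

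**Figure D2:**
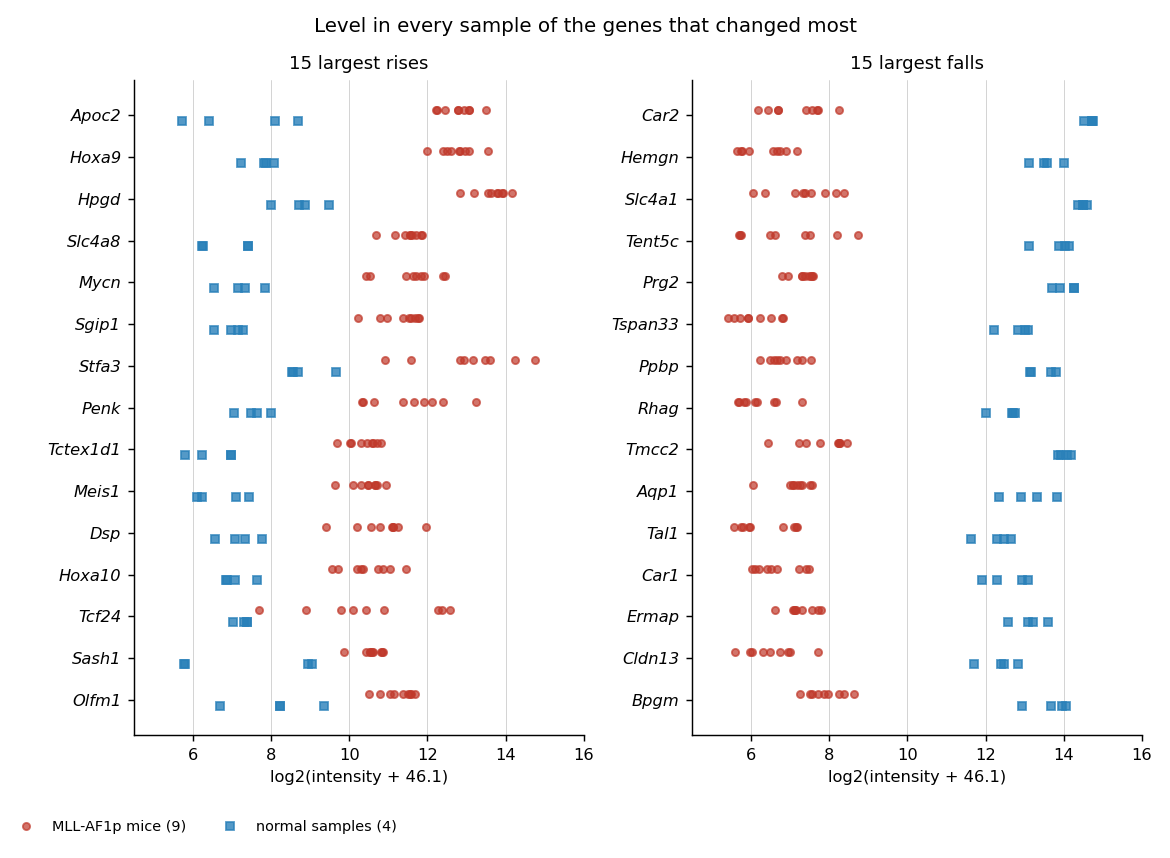
For each of the 15 largest rises and 15 largest falls, the log2 level of each of the 9 MLL-AF1p mice and the 4 normal samples is a point on the x axis, with genes on the y axis. The genes were chosen so that no MLL-AF1p point overlaps a normal point of the same gene; Sash1, Apoc2 and Olfm1 spread most among the normal samples.

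Red cell genes fell further than any other list: 27 of 29 measured genes were lower and 0 higher, with a median of -4.76. Car2, a carbonic anhydrase of red cell precursors, ran from 6.17 to 8.26 (median 7.41) in MLL-AF1p, against 14.72, 14.75, 14.53 and 14.73 in normal marrow. All 9 leukaemias lay in the lower part of the scale and the normal samples close together near its top, and the fall was 181-fold (7.50 ± 0.38, adjusted p = 1.66e-18). Hemgn, a nuclear factor of red cell development, ran from 5.64 to 7.18 (median 6.57), against 13.999, 13.48, 13.11 and 13.58, a fall of 146-fold (adjusted p = 8.25e-22). Slc4a1, the anion exchanger of the red cell membrane, ran from 6.04 to 8.39 (median 7.40), against 14.48, 14.50, 14.35 and 14.60, a fall of 139-fold (adjusted p = 9.35e-19).

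Regulators fell with the proteins of the mature cell. Klf1, the master transcription factor of the lineage, ran from 7.19 to 8.50 (median 7.87) in MLL-AF1p, against 13.11, 12.50, 12.01 and 12.77 in normal marrow (fall of 26.4-fold, adjusted p = 2.46e-19). Tal1, a stem and red cell factor, fell 59.3-fold, and Epor, the erythropoietin receptor, fell 7.83-fold (adjusted p = 1.07e-17 and 2.36e-14). The blood group membrane proteins Rhag and Ermap, whose promoters are printed above, fell 80.3-fold and 57.2-fold, and Kel fell by 5.51 on the log2 scale (adjusted p = 7.8e-16). Bpgm, which makes the phosphate that loosens oxygen from haemoglobin, fell 53.5-fold, and the water channel Aqp1 fell 63.3-fold. Car1, a sister enzyme of Car2, fell 58.5-fold, Cldn13, a claudin family member, 56.2-fold, and the membrane proteins Tspan33 and Tmcc2 103-fold and 73.5-fold. Tent5c, a poly(A) polymerase that lengthens the tails of messages, ran from 5.69 to 8.75 (median 6.61) in MLL-AF1p, against 13.87, 14.14, 13.11 and 14.03 in normal marrow, and fell 118-fold (adjusted p = 1.41e-15). Of the 29 genes, 11 stood above the array median on fewer than 4 of the leukaemia arrays and so were kept through the normal samples, where a difference was bound to appear. Among the other genes, 16 of 18 were lower (median -3.63). With a filter of 13 of the 38 arrays above the median, 14 were tested and 13 were lower.

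Haemoglobin itself is read in part by probe sets shared between gene copies. The 3 probe sets annotated to both alpha globin genes had changes of -8.68, -4.20 and -3.71 on the log2 scale, all called, and on the first of these the intensity was 4.8 to 428.7 in MLL-AF1p, against 33982.2 to 44760 in normal marrow. Mouse AF1p_803 had the highest intensity of the 9 on all 3 of them. The 2 single-gene alpha globin probe sets, Hba-a1 and Hba-a2, were dim in both groups and not called (0.60 and 0.62). A beta globin probe set with 1 symbol changed by -7.28, with intensities of 2.5 to 62.2 in MLL-AF1p, against 6974.4 to 15681.5 in normal marrow. A beta globin probe set with 4 symbols changed by -4.31, and both were called. A further beta globin probe set with 1 symbol was not called (-0.08). Haem and iron genes fell as well, with 18 of 22 lower and a median of -2.17. Lists can share genes, with 779 memberships for 707 different genes measured. This count therefore need not be independent of that of the red cell list. Cpox and Fech, enzymes of haem synthesis, fell 13.7-fold and 9.58-fold, and the mitochondrial iron importer Slc25a37 fell 12.4-fold. The 1 member that rose was Alas1, the general form of the first haem enzyme (0.88, adjusted p = 0.0114), chosen for naming after its value was seen. Alas1 did not pass without normal sample 1 or 4 (adjusted p up to 0.0681).

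Megakaryocyte and platelet genes fell in 15 of 20 cases with 0 rises (median -1.56). Without the 2 kept through the normal samples, 13 of 18 were lower (median -1.29). Ppbp, the platelet basic protein, ran from 6.25 to 7.55 (median 6.74) in MLL-AF1p, against 13.68, 13.80, 13.15 and 13.13 in normal marrow, which is 96.3-fold lower (adjusted p = 6.41e-20). Pf4, the platelet chemokine, fell 20.9-fold, the platelet tubulin Tubb1 9.86-fold and von Willebrand factor Vwf 9.64-fold. Itgb3, the fibrinogen receptor subunit, fell by 2.45 ± 0.26 (adjusted p = 1.27e-09). Not called were Mylk (-0.27), Thbs1 (-0.55), Gp1bb (-0.35), Rgs18 (-0.22) and P2rx1 (0.20).

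B cell genes fell almost throughout, with 24 of 25 lower, 0 higher and a median of -2.70. Without the 5 kept through the normal samples, 19 of 20 were lower (median -2.69). Rag1, which cuts immunoglobulin genes in precursors, ran from 5.38 to 6.44 (median 5.71) in MLL-AF1p, against 10.71, 11.01, 9.93 and 10.74 in normal marrow (fall of 26.3-fold, adjusted p = 2.77e-17). Cd79a, the signalling chain of the B cell receptor, ran from 7.09 to 8.44 (median 7.91), against 12.11, 12.34, 11.47 and 12.18 (fall of 18.5-fold, adjusted p = 8.44e-13). The B cell regulators Pou2af1 and Spib fell 20.1-fold and 19.2-fold, the mature marker Ms4a1 (CD20) 12.5-fold and the interleukin 7 receptor Il7r 6.5-fold. Bach2 alone was not called (-0.14). Plasma cell genes were mixed: the joining chain Jchain fell by 1.57 and Mzb1 fell by 2.53, while the secretion regulator Xbp1 rose by 1.02 and the receptor Tnfrsf13b by 0.74. Jchain did not pass without normal sample 3 or 4 (adjusted p up to 0.053). T and NK cell genes fell in 10 of 18 cases (median -1.12), among them Cd3d of the T cell receptor (-2.42) and the NK receptor Klrd1 (-1.47). Without the 4 kept through the normal samples, 6 of 14 were lower (median -0.96). The costimulator Cd28 rose (1.28, adjusted p = 0.00106), and was named after its value was seen, as the 1 rise in that list.

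Eosinophil granule genes fell deeply. Prg2, the eosinophil major basic protein, ran from 6.79 to 7.60 (median 7.39) in MLL-AF1p, against 13.70, 14.25, 14.26 and 13.89 in normal marrow, with small spread in both groups (fall of 104-fold, adjusted p = 1.94e-08). Eosinophil peroxidase Epx fell 52.4-fold and the lipoxygenase Alox15 18.8-fold, and 8 of 15 listed genes of these cells, basophils and mast cells fell. Without the 4 kept through the normal samples, 5 of 11 were lower (median -1.09). The 2 that rose were Il6ra, an interleukin 6 receptor chain also present on myeloid cells (2.40, adjusted p = 6.66e-06), and the eosinophil receptor Siglecf (1.84, adjusted p = 0.00125), named after its value was seen.

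Resident macrophage genes were mostly lower, 11 of 17, with a median of -1.52. Without the 1 kept through the normal samples, 10 of 16 were lower (median -1.43). C1qa, a complement chain made by tissue macrophages, ran from 5.66 to 6.14 (median 5.94) in MLL-AF1p, against 11.54, 11.43, 9.71 and 10.34 in normal marrow, and 9 of 9 mice lay near the floor of the scale (fall of 28.2-fold, adjusted p = 1.31e-11). C1qa was the 1 measured gene of this list above the array median on no MLL-AF1p array. The 4 normal samples alone sufficed for C1qa to pass the filter, so its adjusted p only describes the difference. The mannose receptor Mrc1 and Cd5l fell 6.34-fold and 7.23-fold. Besides Hpgd, the macrophage marker Adgre1 (F4/80) rose (1.002, adjusted p = 2.37e-05; named after its value was seen). Stroma, bone and vessel genes were lower in 8 of 19 cases, and in 5 without normal sample 1. Without the 3 kept through the normal samples, 5 of 16 were lower (median -0.49). Cxcl12, the chemokine that holds stem cells in the niche, ran from 7.29 to 8.78 (median 7.87), against 11.86, 11.96, 11.58 and 11.44, and fell 13.3-fold (adjusted p = 4.61e-09). The adipocyte hormone Adipoq fell 11.5-fold and the collagen gene Col1a2 by 1.37 on the log2 scale. Of 15 dendritic cell genes 3 fell, Siglech of plasmacytoid cells (-1.91), Ly6d (-3.06) and Pacsin1 (-0.83). Pacsin1 did not pass without mouse AF1p_803, AF1p_804 or AF1p_809 or normal sample 1, 2 or 4 (adjusted p up to 0.13).

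**Figure D3:**
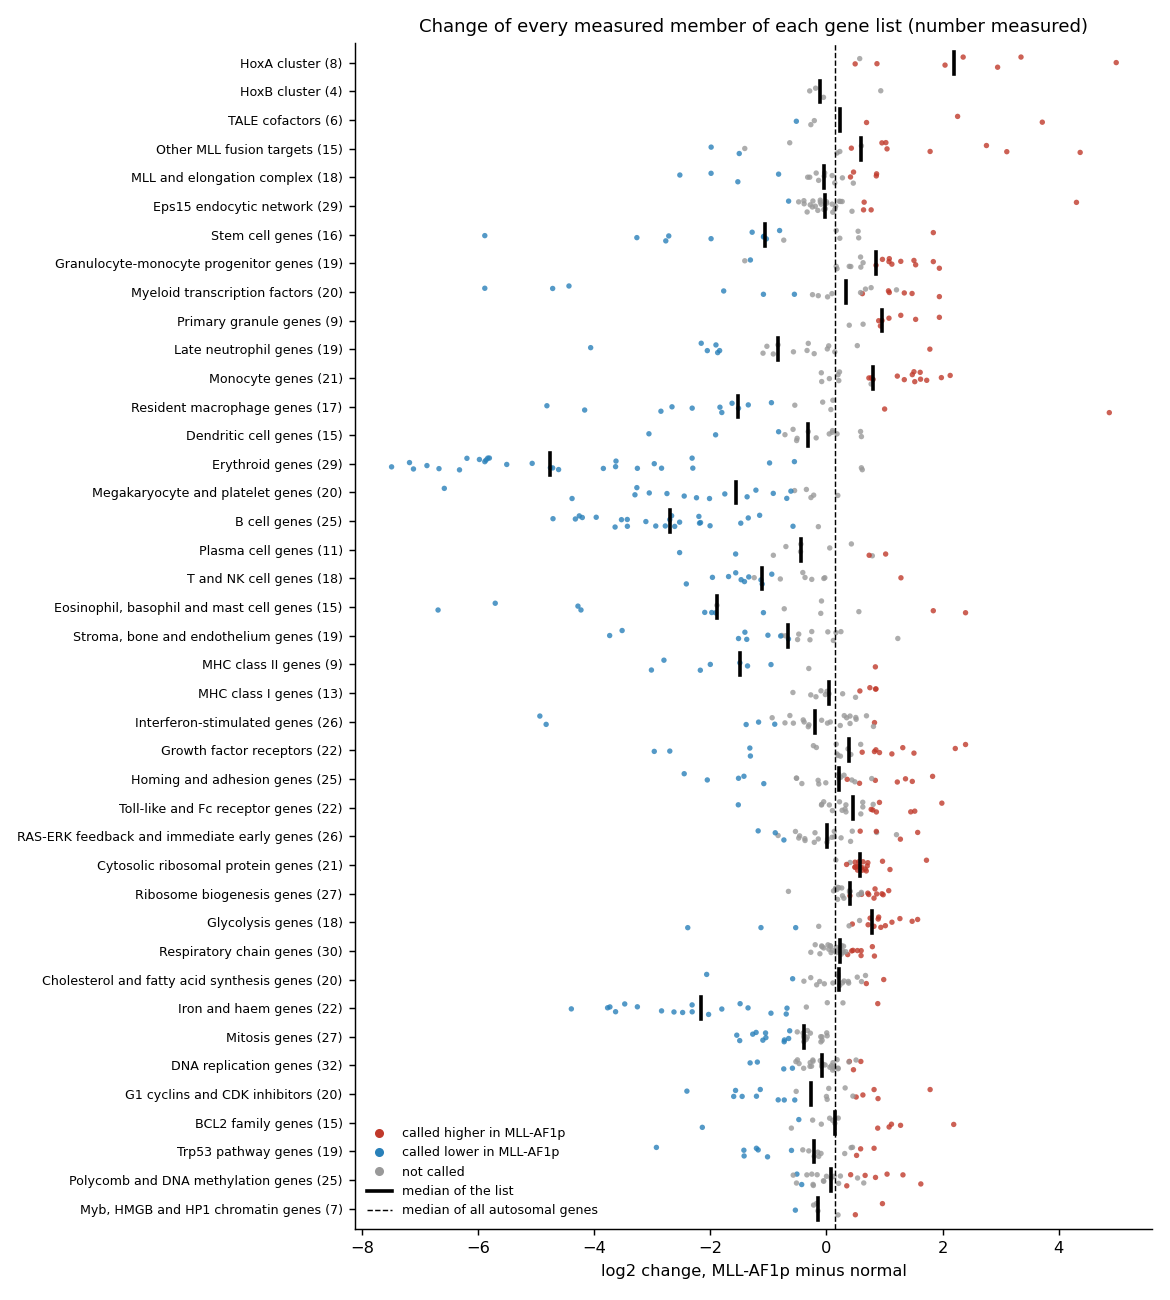
Each point is the log2 change (x axis) of 1 measured gene in MLL-AF1p against normal marrow, in rows by gene list (y axis), coloured by whether it was called higher, called lower or not called, with the list median as a bar. Red cell, B cell, iron and eosinophil lists lie furthest to the left and the HoxA list furthest to the right.

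Stem cell genes were lower in 10 of 16 cases, with a median of -1.06, and several of those genes also serve red cells or platelets (Tal1, Gfi1b, Vwf). Without the 3 kept through the normal samples, 7 of 13 were lower (median -0.81). Gfi1b, a repressor of stem and red cell development, fell by 2.72 ± 0.37 (adjusted p = 2.29e-07). The 1 member that rose was Cd34, a surface protein of stem and progenitor cells, which ran from 9.81 to 11.95 (median 11.02) in MLL-AF1p, against 9.07, 9.41, 8.97 and 8.80 in normal marrow, with every leukaemia above every normal sample (rise of 1.84 ± 0.54, adjusted p = 0.00639). Kit, the receptor by which donor cells were chosen, was not called (0.17, adjusted p = 0.756).

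Genes of granulocyte-monocyte progenitors, the stage that MLL leukaemias resemble in mice, rose in 10 of 19 cases and fell in 1 (median 0.85). Gfi1, the repressor that steers progenitors to granulocytes, ran from 10.75 to 12.79 (median 11.38) in MLL-AF1p, against 9.05, 9.79, 9.99 and 9.43 in normal marrow (rise of 1.95 ± 0.35, adjusted p = 3.11e-05). Csf1r, the M-CSF receptor, ran from 13.24 to 14.23 (median 13.99), against 12.18, 12.62, 12.67 and 12.17, again with no overlap (rise of 1.51 ± 0.23, adjusted p = 2.23e-06). The 1 that fell was Csf3r, the G-CSF receptor of the granulocyte branch (-1.31, adjusted p = 0.00412). Primary granule genes, which promyelocytes use, rose in 7 of 9 cases: cathepsin G (Ctsg) rose by 1.54 ± 0.26, proteinase 3 (Prtn3) by 1.28 ± 0.18 and neutrophil elastase (Elane) by 1.08 ± 0.24. Myeloperoxidase (Mpo) was not called (0.39, adjusted p = 0.161), nor was Ms4a3 (0.63). The primary granule and progenitor lists share genes, Gfi1 among them, so their counts are not separate evidence.

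Monocyte genes rose in 13 of 21 cases with 0 falls and a median of 0.81. Ms4a6c, a membrane protein of monocytes, ran from 12.24 to 13.83 (median 13.33) in MLL-AF1p, against 9.93, 11.86, 11.86 and 10.84 in normal marrow, and rose by 2.13 ± 0.29 (adjusted p = 3.22e-07). Fibronectin (Fn1) rose by 1.73 ± 0.48, clotting factor XIII chain F13a1 by 1.62 ± 0.34 and the lysosomal protein Cd68 by 1.62 ± 0.22. The fractalkine receptor Cx3cr1, a marker of circulating monocytes, rose by 1.48 (adjusted p = 0.00148). Cd14, Tlr2 and Itgam were not called (0.80, 0.22 and 0.21).

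Late neutrophil genes split from the rest of the myeloid genes: 6 of 19 fell and 1 rose, and most did not pass, with a median of -0.84. Chil1, a secondary granule protein, ran from 5.76 to 10.63 (median 7.62) in MLL-AF1p, against 12.04, 11.95, 12.67 and 12.09 in normal marrow (fall of 4.07 ± 0.61, adjusted p = 1.5e-06). Lactoferrin (Ltf) ran from 10.16 to 14.82 (median 13.18), against 14.67, 14.80, 15.26 and 14.90, so that mouse AF1p_803 at 14.82 lay among the normal samples and mouse AF1p_806 at 10.16 far below (fall of 1.84, adjusted p = 0.042). Ltf did not pass without mouse AF1p_801, AF1p_804, AF1p_805, AF1p_806 or AF1p_808 or normal sample 1, 2, 3 or 4 (adjusted p up to 0.102). S100a8, S100a9 and Lcn2, abundant neutrophil proteins, were not called (-0.21, 0.04 and -0.31). The receptor Cxcr2, which draws neutrophils from marrow, fell by 2.05 (adjusted p = 0.00625). The 1 rise was that of Olfm4 (1.78, adjusted p = 0.0204), named after its value was seen. Olfm4 did not pass without normal sample 2 or 4 (adjusted p up to 0.0759).

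Myeloid transcription factors moved both ways, with 6 higher and 6 lower of 20. Cebpb, a factor of emergency granulocyte production and monocytes, rose by 1.48 ± 0.26 (adjusted p = 2.51e-05). Zfpm1 (FOG1), the partner of GATA factors in red cells and platelets, fell 21.7-fold (adjusted p = 2.78e-20). Jun, Egr1 and Irf8 were not called (0.09, -0.14 and 0.59). Of 22 growth factor receptors 9 rose and 4 fell, the others beside Tgfbr2 being Epor, Il7r and Csf3r. Ifngr1, the interferon gamma receptor chain, ran from 12.05 to 13.34 (median 12.92) in MLL-AF1p, against 10.09, 10.82, 11.14 and 10.80 in normal marrow (rise of 2.22 ± 0.20, adjusted p = 3.61e-11), and the transforming growth factor beta receptor Tgfbr2 fell by 1.32 (adjusted p = 0.00011). Among 25 homing and adhesion genes, 7 rose and 5 fell, beside 24.2% and 12.4% of all autosomal genes. The rises were led by the progenitor marker Cd93 (1.83). Beside Itgb3 and Cxcr2, the falls were those of the tetraspanin Cd9 (-1.42), the stromal adhesion molecule Vcam1 (-1.52) and the endothelial molecule Esam (-1.08), the last of these named after its value was seen. Vcam1 did not pass without mouse AF1p_801, AF1p_806 or AF1p_808 or normal sample 1 or 2 (adjusted p up to 0.139).

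MHC class II genes, which present antigen on B cells, dendritic cells and macrophages, fell in 7 of 9 cases (median -1.49). The invariant chain Cd74 ran from 9.44 to 11.20 (median 10.22) in MLL-AF1p, against 13.08, 13.54, 13.52 and 13.42 in normal marrow, with the groups far apart (fall of 8.1-fold, adjusted p = 1.55e-05). The alpha chain H2-Aa fell by 2.80, the beta chain H2-Eb1 by 2.18 and Ciita, the activator of the class, by 0.96. H2-DMa, the peptide exchange chain, rose by 0.84 (adjusted p = 0.0183), and H2-DMb2 was not called (-0.31). H2-DMa did not pass without normal sample 4 (adjusted p = 0.0662). The fall of class II genes stood beside the fall of B cell genes, whose summed intensity was 5860.1 to 8926.8 in MLL-AF1p and 45926 to 71914.2 in normal marrow, and the part of those cells was not tested. MHC class I genes gave 4 rises of 13, in peptide loading (Calr 0.85, Pdia3 0.85), trimming (Erap1 0.75) and the immunoproteasome (Psmb10 0.58). These rises were 30.8% of the list, beside 24.2% of all autosomal genes called higher. H2-K1, H2-D1 and B2m were not called (-0.27, -0.10 and 0.01). The list median was 0.04, but -0.07 with values as deposited and -0.17 after quantile normalization, which put B2m at -0.51 (adjusted p = 0.0114). Psmb10 did not pass without normal sample 3 or 4 (adjusted p up to 0.0777).

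Interferon-stimulated genes mostly did not pass, with 5 of 26 lower and 1 higher, and 8 lower both with values as deposited and after quantile normalization. Rsad2 (viperin), an antiviral enzyme, nonetheless ran from 7.97 to 9.86 (median 8.17) in MLL-AF1p, against 13.70, 13.92, 12.79 and 13.40 in normal marrow, and fell 30.7-fold (adjusted p = 9.03e-15). Isg20, an exonuclease, fell 28.5-fold (adjusted p = 7.13e-17), while the other members that fell (Cmpk2, Oas3 and Gbp2) did so by 0.89 to 1.39 on the log2 scale. Oas1a was the 1 rise (0.83, adjusted p = 0.018). Oas1a did not pass without normal sample 1 or 4 (adjusted p up to 0.138). Oas3 did not pass without normal sample 2 or 3 (adjusted p up to 0.0812). Toll-like and Fc receptor genes rose in 7 of 22 cases, led by the inhibitory Fc receptor Fcgr2b (1.99 ± 0.14, adjusted p = 3.4e-14) and Tlr1 (1.45), and the lectin Clec4d fell (-1.52). The share called was 36.4% in this list, beside 36.6% of all autosomal genes. Clec4d did not pass without normal sample 3 (adjusted p = 0.0544). Of 26 genes that answer RAS-ERK signalling, 4 rose and 3 fell. The largest change was that of Spry2, a feedback inhibitor (1.57, adjusted p = 3.43e-06), of which the other kept probe set went the opposite way (-1.06). The other rises were those of Nr4a1 (1.27), Atf3 (0.86) and, named after its value was seen, Fosb (0.58), and the falls those of Btg2 (-1.18), Jund (-0.88) and Klf6 (-0.73). Atf3 did not pass without mouse AF1p_803, AF1p_804, AF1p_805, AF1p_809, AF1p_810 or AF1p_811 or normal sample 1, 2 or 4 (adjusted p up to 0.199). Klf6 did not pass without mouse AF1p_801, AF1p_806, AF1p_808, AF1p_810 or AF1p_811 or normal sample 2, 3 or 4 (adjusted p up to 0.163). Fosb did not pass without mouse AF1p_801, AF1p_804, AF1p_805, AF1p_806 or AF1p_808 or normal sample 1, 2 or 3 (adjusted p up to 0.331). The list median of 0.01 became -0.10 with values as deposited and -0.10 after quantile normalization.

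Cytosolic ribosomal protein genes were higher in 19 of 21 cases with a median of 0.58, but after quantile normalization 6 were higher and the median was 0.13. Rpl37, a large-subunit protein, ran from 12.18 to 13.41 (median 12.86) in MLL-AF1p, against 11.10, 11.21, 11.39 and 10.87 in normal marrow (rise of 1.72 ± 0.16, adjusted p = 7.18e-11), and Rpl11 rose by 1.09. Ribosome biogenesis genes rose in 10 of 27 cases, among them the nucleolar factors Mybbp1a (1.07) and Rrs1 (0.98).

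Glycolysis genes rose in 12 of 18 cases and fell in 3 (median 0.79). Tpi1, triosephosphate isomerase, ran from 12.60 to 13.40 (median 12.93) in MLL-AF1p, against 11.32, 11.37, 11.56 and 11.19 in normal marrow, with no overlap (rise of 1.57 ± 0.16, adjusted p = 5.17e-10). Aldoc and Aldoa, aldolases, rose by 1.48 and 1.13, and Pgam1, phosphoglycerate mutase, by 1.27. The glucose transporter Slc2a3 fell by 2.39, the muscle-type phosphofructokinase Pfkm by 1.13 and, named after its value was seen, hexokinase Hk1 by 0.53. Respiratory chain genes gave 8 rises of 30, or 26.7%, beside 24.2% of all autosomal genes called higher. Cytochrome c (Cycs, 0.79) was among these rises, and the list median of 0.23 became -0.02 after quantile normalization. Among 20 genes of cholesterol and fatty acid synthesis, the desaturase Scd1 fell by 2.07 (adjusted p = 7.48e-09) and the regulator Srebf2 by 0.58, and the enzymes Dhcr7 and Mvd rose by 0.99 and 0.69. Srebf2 did not pass without mouse AF1p_801, AF1p_803, AF1p_804 or AF1p_810 or normal sample 3 or 4 (adjusted p up to 0.137).

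Mitosis genes were lower in 11 of 27 cases and higher in 0, with a median of -0.39; with values as deposited 19 were lower and after quantile normalization 18. Ube2c, which helps to destroy cyclins at the end of mitosis, fell by 1.55 ± 0.21 (adjusted p = 3.5e-07), cyclin A2 (Ccna2) by 1.21 ± 0.22 and survivin (Birc5) by 1.27 ± 0.19. Of 32 DNA replication genes 3 rose and 4 fell, with the ribonucleotide reductase subunit Rrm2 at -1.32 (adjusted p = 7.58e-09). The numbers were 2 and 8 with values as deposited, and 0 and 9 after quantile normalization. The other falls were those of Cdc6 (-1.19), Rrm1 (-0.74) and Orc2 (-0.59), and the rises those of Mcm6 (0.59), Cdc45 (0.46) and, named after its value was seen, Rfc2 (0.39). Orc2 did not pass without normal sample 1 or 4 (adjusted p up to 0.0908). Mcm6 did not pass without mouse AF1p_804, AF1p_809 or AF1p_811 or normal sample 1, 3 or 4 (adjusted p up to 0.132). Cdc45 did not pass without mouse AF1p_805, AF1p_806, AF1p_808, AF1p_809, AF1p_810 or AF1p_811 or normal sample 2, 3 or 4 (adjusted p up to 0.142). Rfc2 did not pass without mouse AF1p_804, AF1p_808 or AF1p_809 or normal sample 2, 3 or 4 (adjusted p up to 0.117). G1 genes were divided: Cdk6 ran from 12.64 to 13.91 (median 13.48) in MLL-AF1p, against 11.83, 11.58, 11.71 and 11.51 in normal marrow, whereas cyclin D2 (Ccnd2) fell by 1.60, cyclin E1 (Ccne1) by 1.57, the E2F factor E2f2 by 2.41 and the retinoblastoma gene Rb1 by 1.45. Named after their values were seen, the other G1 genes that rose were the inhibitors Cdkn2c (0.89) and Cdkn1a (0.82), the kinase Cdk4 (0.63) and the retinoblastoma relative Rbl2 (0.51). Cdk4 did not pass without normal sample 2, 3 or 4 (adjusted p up to 0.0553). These falls of cell division genes stood beside that of the red cell genes, and the part of red cell precursors was not tested.

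Death and survival genes of the BCL2 family rose in 5 of 15 cases and fell in 2. Pmaip1 (NOXA), a death activator, ran from 9.14 to 10.69 (median 9.93) in MLL-AF1p, against 7.59, 7.93, 7.67 and 7.59 in normal marrow (rise of 2.19 ± 0.31, adjusted p = 4.81e-07). Bcl2l1 (BCL-XL), a survival protein abundant in red cell precursors, ran from 9.27 to 10.23 (median 9.90), against 12.01, 12.17, 11.58 and 12.23 (fall of 2.14 ± 0.19, adjusted p = 8.39e-12). Both changes left the groups fully apart, and Bcl2 and Mcl1 were not called (0.16 and 0.05). The other rises were those of Bnip3 (1.28), Bid (1.12), Bcl2l2 (1.08) and Bad (0.88), and Bbc3 (PUMA) fell (-0.48, adjusted p = 0.0426; named after its value was seen). Bbc3 did not pass without mouse AF1p_801, AF1p_803, AF1p_808, AF1p_809, AF1p_810 or AF1p_811 or normal sample 2, 3 or 4 (adjusted p up to 0.144). Of 19 genes of the Trp53 pathway 3 rose, which were Cdkn1a, Trp73 (0.59) and Ei24 (0.52), all outside the naming rule and named after their values were seen, and 7 fell. Trp73 did not pass without mouse AF1p_811 or normal sample 1, 2 or 4 (adjusted p up to 0.126). Ei24 did not pass without mouse AF1p_805, AF1p_808 or AF1p_809 or normal sample 3 or 4 (adjusted p up to 0.114). Gadd45a, a damage response gene, fell by 2.93 ± 0.37 (adjusted p = 5.19e-08) with a wide range of 6.08 to 9.39 among the leukaemias, against 10.90 to 11.26 in normal marrow. The sestrin Sesn1 fell by 1.42 ± 0.20 (adjusted p = 4.57e-07).

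Polycomb and DNA methylation genes keep or change the silent state of chromatin. Tet2, which oxidises methylcytosine, ran from 10.50 to 11.49 (median 11.06) in MLL-AF1p, against 9.30, 9.51, 9.53 and 9.29 in normal marrow, and rose by 1.63 ± 0.18 (adjusted p = 2.32e-09). Jarid2 and Phf19, Polycomb cofactors, rose by 1.32 ± 0.12 and 1.04 ± 0.16, and Bmi1, a self-renewal gene of the same system, by 0.84 ± 0.21. In all, 7 of 25 Polycomb and DNA methylation genes rose and 2 fell, Ezh2 by 0.51 (adjusted p = 0.0394) and, named after its value was seen, Cbx2 by 0.43 (adjusted p = 0.0174). The share called was 36% in this list, beside 36.6% of all autosomal genes. Ezh2 did not pass without mouse AF1p_801, AF1p_803 or AF1p_806 or normal sample 1, 2 or 4 (adjusted p up to 0.117). Cbx2 did not pass without normal sample 1 or 4 (adjusted p up to 0.0711). The list median was 0.08, but -0.03 with values as deposited and -0.09 after quantile normalization. Of 7 Myb, HMGB and HP1 genes, a group the study had picked from these samples and which is no independent evidence of a direction, the progenitor factor Myb rose by 0.96 ± 0.18 (adjusted p = 6.32e-05), Hmgb2 rose by 0.50 (adjusted p = 0.017) and Mybl2 fell by 0.54 (adjusted p = 0.0198). Hmgb2 probe sets disagreed, and its value was -0.12 when they were averaged. Hmgb2 did not pass without normal sample 1 or 4 (adjusted p up to 0.187). Mybl2 did not pass without normal sample 1 or 2 (adjusted p up to 0.118).

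The 9 leukaemias had a median gene SD of 0.369, against 0.269 in the 4 normal samples, and 71.7% of autosomal genes had the wider SD in MLL-AF1p. The median of sample SDs is lower with fewer arrays, so these values cannot be set against equal medians or an even split. The leukaemias span both array sets and the normal samples 1, and within the second set the 5 mice had a median SD of 0.334 and the wider SD in 63.8% of genes. With values as deposited the median SDs were 0.331 in MLL-AF1p and 0.261 in normal marrow. Rps4l, a ribosomal protein gene on chromosome 6, varied most. Mice AF1p_808, AF1p_809, AF1p_810 and AF1p_811 had it at 10.26 to 11.10 and the other 5 mice at 5.33 to 5.77, against 5.56, 8.56, 6.74 and 6.93 in normal marrow, so no leukaemia lay between these ranges although 3 normal samples did. Tmem178, a membrane protein gene, ran from 7.01 to 12.01 (median 9.57) in MLL-AF1p, with mouse AF1p_808 highest, against 7.17, 6.91, 7.28 and 6.65 in normal marrow (rise of 2.38, adjusted p = 0.0276). Tmem178 did not pass without mouse AF1p_808 or normal sample 1, 2 or 4 (adjusted p up to 0.074). Satb1, a chromatin organiser of lymphoid cells, ran from 6.46 to 11.62 (median 8.92), against 10.45, 10.99, 10.70 and 10.62, with mouse AF1p_803 at 11.62 above all normal samples and the other 8 mice below them (fall of 1.93, adjusted p = 0.042). Satb1 did not pass without mouse AF1p_801, AF1p_805, AF1p_806 or AF1p_809 or normal sample 1, 2, 3 or 4 (adjusted p up to 0.0966). Chil1 and Ltf, described above, were also among the 12 most variable genes, and Retnla, a resistin-like secreted protein, ran from 6.33 to 11.33 (median 9.61) in MLL-AF1p, against 10.46, 10.72, 10.80 and 10.83 in normal marrow, without passing (adjusted p = 0.0537), although it passed under 10 of the 27 alternatives, among them values as deposited and quantile normalization.

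Of the 41 lists, the late neutrophil genes had the widest spread over the leukaemias, 0.90 as an SD of the list means. Their mean log2 level was 11.05 in mouse AF1p_806 and 13.82 in mouse AF1p_803, against 13.10 to 13.93 in normal marrow. Interferon-stimulated genes stood at 10.04 in mouse AF1p_809 and at 8.56 to 9.16 in the other 8, against 9.11 to 10.003 in normal marrow. Mouse AF1p_803, whose hybridisation controls were the brightest of the group, also had the lowest mitosis genes (10.23, against 10.56 to 11.09 in the other 8 mice). Levels of lists also moved with the array's median intensity: mouse AF1p_801, with the highest median, was lowest in 18 of 41 lists, and mouse AF1p_809, with the lowest median, was highest in 23, but with values as deposited these counts were 4 and 8.

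**Figure D4:**
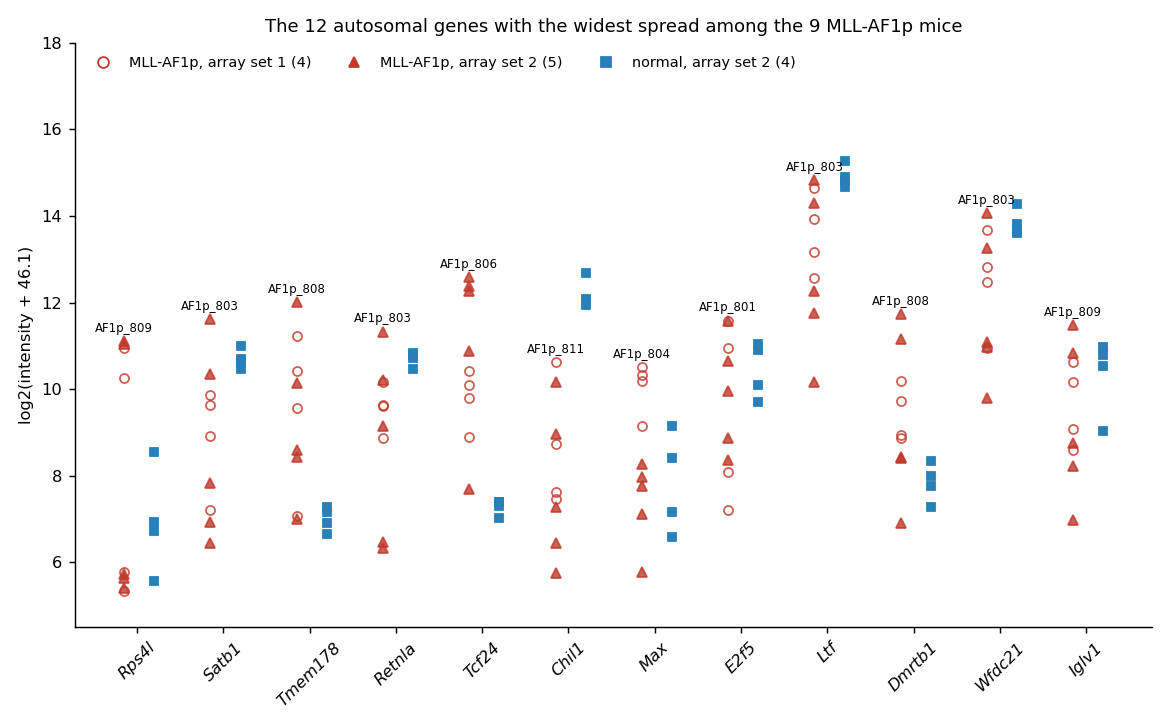
For the 12 autosomal genes that varied most among the MLL-AF1p mice (x axis), the log2 level (y axis) of each of the 9 MLL-AF1p mice and 4 normal samples is a point; the highest mouse of each gene is named, and open and filled signs tell the array sets apart. Rps4l falls into a group of 4 mice above 10 and a group of 5 below 6.

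**Figure D5:**
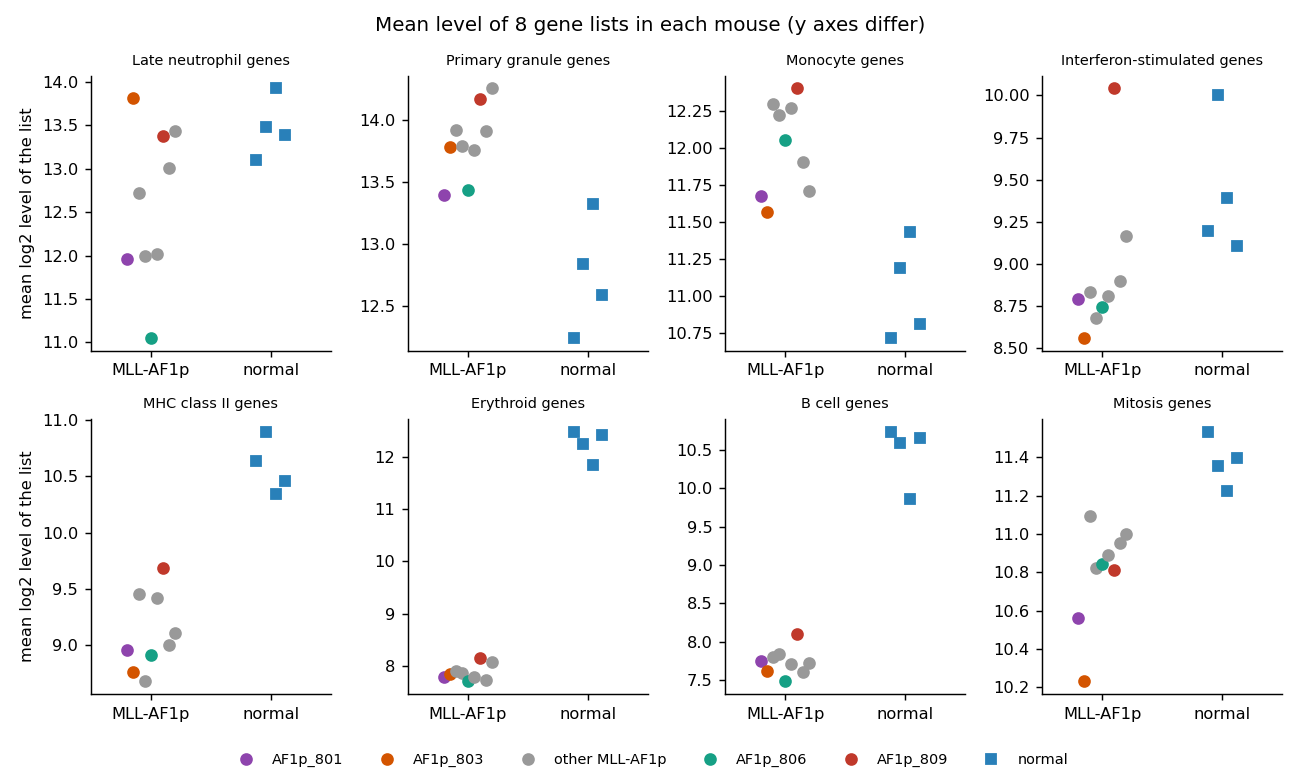
Each of 8 panels gives the mean log2 level of the measured genes of 1 list (y axis, with its own range) in each MLL-AF1p mouse and each normal sample (x axis); mice AF1p_801, AF1p_803, AF1p_806 and AF1p_809 have their own colours. Late neutrophil genes spread from 11.05 to 13.82 among the leukaemias, and mouse AF1p_809 lies alone for interferon-stimulated genes.

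Calls of single genes and lists also depended on other settings. When the probe sets of a gene were averaged, Atf3, Cdc45, Cdk4, Cdk9, Klf6, Mcm6, Mllt1, Mllt6, Mvd, Pknox1, Rbl2, Spry2, Srebf2 and Wdr5 lost their call, and Bach2, Gp1bb, Irf8 and Kmt2a gained one. After quantile normalization Atf3, Cdc45, Cdk9, Ehd4, Hmgb2, Mcm6 and Rfc2 lost it and H2-D1, H2-K1, Kmt2a and Retnla gained one, H2-K1 and H2-D1 as lower. With values as deposited Atf3, Cdc45, Ehd4, Fosb, Hoxa13 and Trp73 lost it. Within the second array set Atf3, Bbc3, Btg2, Cbx2, Ehd4, H2-DMa, Hmgb2, Hoxa2, Itsn2, Klf6, Ltf, Mcm6, Mybl2, Oas1a, Olfm4, Pacsin1, Psmb10, Srebf2, Tmem178, Trp73 and Vcam1 lost it. Falls among respiratory chain genes numbered 1 with values as deposited and 5 after quantile normalization, and rises numbered 16 with array weights and 5 with only the 13 arrays in the fit. MHC class I genes had 4 falls after quantile normalization. Without probe sets that may read several genes, 4 of 11 ribosomal protein genes and 7 of 11 glycolysis genes were higher, and 4 of 6 MHC class II genes lower.

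Against the mean of the other 4 cohorts (MLL-AF10, MLL-GAS7, MLL-AF9 and MLL-ENL) far fewer genes set MLL-AF1p apart: 298 autosomal genes (2.32%) were called, 100 higher and 198 lower. The count was 164 without mouse AF1p_803 and 100 within the second array set. Of the 30 largest changes against normal marrow, 3 were among them. Tcf24, a basic helix-loop-helix factor, was higher in MLL-AF1p than in the other cohorts by 2.30 ± 0.49 (adjusted p = 0.00682), with levels from 7.70 to 12.58 (median 10.42) in MLL-AF1p, against 7.31, 7.02, 7.39 and 7.39 in normal marrow. Sash1, a signalling scaffold, was higher by 1.35 ± 0.31 (adjusted p = 0.0116), and its 9 values of 9.87 to 10.86 lay together while the normal samples had 9.06, 8.94, 5.81 and 5.78. Mycn was lower than in the other cohorts by 1.15 ± 0.22 (adjusted p = 0.00216), although it rose against normal marrow. With the disagreeing Mycn probe sets averaged the difference from the other cohorts was -0.53 and did not pass (adjusted p = 0.0525). Hoxa9 and Meis1 did not pass in this test (0.05, adjusted p = 0.934, and 0.02, adjusted p = 0.981).

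Among the other named genes, Hoxb2 was higher than in the other cohorts by 1.12 ± 0.30 (adjusted p = 0.0363), and the monocyte gene Ms4a6d by 1.52 ± 0.32 (adjusted p = 0.00575). Itgb3 was lower by 0.998 ± 0.17 (adjusted p = 0.000698), H2-Oa, an inhibitory class II chain, by 1.13 ± 0.20 (adjusted p = 0.00114), and Sesn1 by 0.66 ± 0.13 (adjusted p = 0.00309). Sesn1 did not pass without probe sets that may read several genes (-0.54, adjusted p = 0.111). The glycolytic genes Tpi1 and Aldoc were higher by 0.41 and 0.57 (adjusted p = 0.0235 and 0.0142). Hoxb2 did not pass without mouse AF1p_801, AF1p_803, AF1p_804 or AF1p_810 (adjusted p up to 0.125). Tpi1 did not pass without mouse AF1p_803, AF1p_804 or AF1p_811 (adjusted p up to 0.0644).

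Within the second array set alone, the differences of Tcf24 at 3.47 (adjusted p = 0.00767), Itgb3, H2-Oa and Sesn1 passed. Those of Mycn at -0.73 (adjusted p = 0.18), Sash1 at 1.54 (adjusted p = 0.104), Ms4a6d at 1.71 (adjusted p = 0.114), Hoxb2, Tpi1 and Aldoc did not pass there.

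In the MLL-AF9 cohort, where Y-linked Eif2s3y differed from normal marrow by 0.01 on average, Xist still differed, by 2.10 (adjusted p = 0.00374), so the same 4 normal samples gave a comparison with a weaker sex-linked pattern. Because the normal samples are shared, only each comparison's own values are given. Hoxa9 differed from normal marrow by 4.99 in MLL-AF1p and by 5.30 in MLL-AF9, Apoc2 by 5.55 and 4.68, and Car2 by -7.50 and -7.65. Stfa3 differed by 4.19 in MLL-AF1p and by 1.38 in MLL-AF9 (adjusted p = 0.314 in MLL-AF9), and Tcf24 by 3.28 and 1.44 (adjusted p = 0.197). Lactoferrin (Ltf) differed by -1.84 in MLL-AF1p and by -3.68 in MLL-AF9. Ms4a6d differed by 1.98 in MLL-AF1p and by -0.84 in MLL-AF9. The differences between MLL-AF1p and MLL-AF9 themselves were not tested, nor was the part of the sex-linked pattern in any of these values. The genes given here are only a few of those named above.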

How the data were processed

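RNA from marrow of 34 leukaemic and 4 normal mice was labelled with the Affymetrix IVT kit and hybridised to whole-genome Affymetrix mouse arrays, 1 array per mouse, per the labels. The authors deposited scaled linear intensities for 45101 probe sets, with a mean of 500 after 2% trimming on the 1 array where this was recorded. The sources used here do not name the software. Log2(intensity + 46.1) was computed from the deposited intensity values, the pseudocount being their 25th percentile, and every array's median was then set to 1 value.

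Of the probe sets, 64 are controls, 34945 carry 1 gene symbol, 932 several and 9160 none in GEO's platform annotation, and 34741 were matched to RefSeq genes. Probe sets above their array's median on at least 4 arrays were kept (29004, of which 23902 have 1 symbol), and the brightest stands for each of 13333 genes. limma 3.58.1 in R 4.3.3 fitted 6 group means over 38 arrays, and p-values were adjusted by Benjamini-Hochberg over all 13333 genes, called under 0.05; the fit was checked on simulated data. Array sets were found from the values of 1 probe set, by a gap between arrays.

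Each array's precision cannot be given beyond the spread of the mice. The gene lists and members were chosen with earlier results of these data known. Genes were named by rule: the 15 largest rises and falls with all mice beyond all normal samples, the 6 called members of each list with the largest change and every member of lists of up to 11 genes, the 12 with the widest spread, the fusion genes, and genes said to be named after their values were seen; uncalled members are given as values. Alternatives covered the pseudocount, scaling, dim-probe filter, probe set rule, arrays in the fit, array weights, variance model, array set and each array. The counts without genes kept through the normal samples, and the gene spread under other scalings, were added after the data were seen.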

Additional observations from a re-analysis of the deposited data

Results flagged for a closer look

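In 39 of 562 groups of values (6.94%; 9 MLL-AF1p mice or 4 normal samples, for each gene in the text and each list mean) 1 sample lay far from the others of its group by Dixon's ratio, which chance does in about 1 group in 20. Levels are on the log2 scale with array medians brought to 1 value, and the ratio was not computed on values as deposited. Mice AF1p_801 and AF1p_803 had the highest array medians of the MLL-AF1p group (208.3 and 188), which lowers their levels on this scale. The part of that shift in the low values of these mice was not tested. Mouse AF1p_801 stood alone for Bcl2l2 at 8.78 (the other 8 at 9.49 to 10.03), Ifngr1 at 12.05 (12.74 to 13.34) and Mllt1 at 7.22 (8.46 to 9.15). This mouse also did for Sash1 at 9.87 (10.42 to 10.86) and Wdr5 at 10.66 (11.20 to 11.49). Mouse AF1p_803 stood alone for Bid at 10.76 (the other 8 at 11.53 to 12.27), Birc5 at 10.74 (11.39 to 11.99) and Ccna2 at 10.70 (11.40 to 11.92). This mouse also did for Ehd4 at 8.90 (10.07 to 10.91), Gbp2 at 5.78 (7.17 to 8.35) and H2-DMa at 9.32 (10.89 to 11.59). This mouse also did for Psmb10 at 9.72 (10.85 to 11.35) and Sesn1 at 8.74 (9.23 to 9.71). Mouse AF1p_804 stood alone for Aqp1 at 6.07 (the other 8 at 7.00 to 7.56) and Egr1 at 10.58 (7.60 to 8.87). Mouse AF1p_806 stood alone for Bcl11a at 5.96 (the other 8 at 7.62 to 8.95), S100a8 at 13.60 (15.04 to 16.50) and S100a9 at 13.99 (15.34 to 16.53). Mouse AF1p_808 stood alone for Eya1 at 7.43 (the other 8 at 9.82 to 11.53). Mouse AF1p_809 stood alone for Oas1a at 11.92 (the other 8 at 10.26 to 10.99), Rsad2 at 9.86 (7.97 to 8.91) and the mean of the interferon-stimulated genes at 10.04 (8.56 to 9.16). Mouse AF1p_810 stood alone for Hba-a1 at 6.42 (the other 8 at 7.31 to 8.05), Hoxb2 at 10.37 (7.30 to 8.64) and the mean of the HoxB genes at 8.61 (7.36 to 7.82). Normal sample 1 stood alone for Cdk4 at 11.19 (the other 3 at 10.81 to 10.85), Hoxa7 at 6.32 (5.88 to 5.92) and Pbx3 at 8.87 (8.65 to 8.66). Normal sample 3 stood alone for Atf3 at 8.13 (the other 3 at 6.13 to 6.41), Car2 at 14.53 (14.72 to 14.75) and Mcm6 at 11.65 (12.07 to 12.15). This sample also did for Meis3 at 7.98 (7.57 to 7.61), Rhag at 12.02 (12.68 to 12.75) and Rrm2 at 13.43 (13.81 to 13.88). This sample also did for Stfa3 at 9.67 (8.54 to 8.68) and the mean of the B cell genes at 9.86 (10.60 to 10.74). Normal sample 4 stood alone for Bach2 at 8.49 (the other 3 at 7.83 to 7.88), Cd68 at 10.34 (10.72 to 10.80) and Pknox2 at 7.86 (7.09 to 7.13).

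Against the other 4 cohorts, Mycn differed by -1.15, Sash1 by 1.35 and Tcf24 by 2.30 in MLL-AF1p on the log2 scale by limma (adjusted p = 0.00216, 0.0116 and 0.00682). On chromosome X, which was set aside, Xist differed by 6.14 from normal marrow.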

How the results depend on the processing

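The number of arrays limits the precision, and dim probe sets have only small possible falls. No paired analysis was possible because the MLL-AF1p and normal samples share no replicate numbers. Over 13 fits that each left out 1 array, the called autosomal genes numbered 3876 to 4927, with 2471 to 3395 higher, 1322 to 1638 lower and 1642 to 1812 changed at least 2-fold. Over the other alternatives the count ran from 3867 without probe sets that may read several genes, where fewer genes were tested, to 5667 with array weights. The count against the other 4 cohorts was 453 with values as deposited, 100 within array set 2 (a fit with fewer arrays, chosen after the data were seen) and 164 to 306 without 1 mouse, the lowest without mouse AF1p_803; the cause was not tested. Within array set 2 the actin ratio difference was 0.104 (exact permutation test, adjusted p = 0.175) and that of 18S 1.36 (exact permutation test, adjusted p = 0.159), with fewer arrays. Averaging the probe sets of a gene turned Itsn2 to -0.063 and Hmgb2 to -0.12, Hmgb2 was -0.37 without probe sets that may read several genes, and B2m was -0.51 after quantile normalization. Of 201 called genes in the text, 42 lost their call under at least 1 of 27 alternatives, which included Hoxa13, Mllt1, Ltf, Satb1, Atf3 and Ehd4. Kmt2a passed as lower with values as deposited (-0.40), after quantile normalization (-0.39) and with averaged probe sets (-0.68).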
